A study of Mus musculus with 6 samples.

Results

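Open chromatin in the mouse palate was examined at genes of transforming growth factor beta (Tgf-beta) signalling. They were the ligand genes Tgfb1, Tgfb2 and Tgfb3, the receptor genes Tgfbr1, Tgfbr2 and Tgfbr3, and the Smad genes Smad2, Smad3, Smad4 and Smad7. These 10 genes, of 21911 protein-coding genes in the annotation, form a signalling family and were chosen by name. Every peak whose midpoint lay in a gene's body or within 100 kb of its start site was counted for that gene. Between 502 and 685 peaks per library fell in these windows, of 270003 to 349322 peaks per list.

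The study profiled the palate of C57BL/6 mouse embryos at E14.5, the day on which the shelves meet and begin to fuse, by ATAC-seq. In this assay the Tn5 transposase cuts and tags DNA where chromatin is open, and clusters of short fragments are called as peaks. The 3 epithelium libraries came from the epithelium peeled off trypsin-treated shelves, which held both the basal layer and the superficial periderm. The 3 mesenchyme libraries came from the tissue left after peeling. Each library was made from 20000 cells and, by the labels, there was neither genetic change nor treatment in either group. Tissue of several embryos was pooled for a library, and the sources give different numbers of embryos or shelves. The epithelium lists held 270003, 349322 and 296695 peaks and the mesenchyme lists 295141, 341741 and 315468, so counts were scaled to the length of each list. The peel was a mechanical separation, not a sort, and by the labels the tissue left after it was mostly, not wholly, mesenchymal.

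Marker genes followed the labels in part. Of 20 epithelial marker genes, 3 had more peaks in epithelium by limma (Trp63, Dsg3 and Dsp) and none had fewer, and their windows held 40 epithelium-only and 15 mesenchyme-only regions. Of 20 mesenchymal marker genes, 1 had fewer peaks in epithelium (Prrx1) and none had more, with 7 epithelium-only and 32 mesenchyme-only regions. Summed scaled peaks over the epithelial markers were 1177 to 1248 in epithelium and 1148 to 1200.3 in mesenchyme, and over the mesenchymal markers 768 to 892 in epithelium and 850.2 to 922 in mesenchyme. No marker gene of any list was without a peak in either tissue. The windows of endothelial markers held 6 epithelium-only and 13 mesenchyme-only regions, those of leukocyte markers 3 and 12, of muscle markers 2 and 8, of nerve and glia markers 6 and 2, and of erythroid markers 5 and 1, and their part in the results below was not tested.

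Tgf-beta ligands are secreted in a latent form and, once released, are bound by the receptor kinase Tgfbr2, which recruits and phosphorylates the kinase Tgfbr1, while Tgfbr3 (betaglycan) is a co-receptor that presents ligand. Activated Tgfbr1 phosphorylates Smad2 and Smad3, which enter the nucleus with the shared partner Smad4, and Smad7 is an inhibitory Smad that the pathway itself induces. In the mouse, Tgfb3 is known for its expression in the medial edge epithelium, where it is needed for the shelves to fuse. Loss of Tgfb3 causes cleft palate. The methods describe no separation of the medial edge from the rest of the shelf epithelium, so the medial edge was not measured apart.

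Open regions seen in all libraries of a single tissue are described first, with the sequences of 9 of them. A region was built by merging peaks of the 6 lists that shared at least 1 bp, and was kept where at least 2 libraries had a peak. It was called epithelium-only where the 3 epithelium lists all had a peak there and the mesenchyme lists none, and mesenchyme-only in the reverse case. The windows held 665 kept regions, of which 17 (2.56%) were epithelium-only and 15 (2.26%) mesenchyme-only, against 2.98% and 2.2% of all 342690 kept regions in the genome. The shares at the 10 genes were thus close to those of the genome, and what follows describes which regions these were and where they lay.

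The sequences below are the central 300 bases of tissue-only regions that lie inside one of the genes or have it as the nearest start site, at most 2 per gene (1 for Tgfbr1), ranked by the smallest of a region's 3 peaks, with Smad2, Smad4 and Smad7 left out. They are given 5′ to 3′ on the plus strand from the RefSeq GRCm38.p6 (mm10) genome, with the distance of the region's midpoint from the start site of the named gene, positive in the direction of transcription. Capitals mark matches on either strand to short motifs: GTCTG (SMAD), TGANTCA (AP-1), AACNNGTT (GRHL), TGTGGT (RUNX), GGAATG (TEAD), CACCTG (E-box), CCACCC (KLF), GCCNNNGGC (TFAP2) and the p53-family decamer. The regions at Tgfb1, Smad3 and Tgfbr3 lie in introns of these genes, the region at Tgfb3 in an intron of the neighbouring gene Ttll5, and those at Tgfbr1 and Tgfbr2 between genes.
Tgfb3 +61.7 kb, epithelium-only, chr12:86017225-86017524: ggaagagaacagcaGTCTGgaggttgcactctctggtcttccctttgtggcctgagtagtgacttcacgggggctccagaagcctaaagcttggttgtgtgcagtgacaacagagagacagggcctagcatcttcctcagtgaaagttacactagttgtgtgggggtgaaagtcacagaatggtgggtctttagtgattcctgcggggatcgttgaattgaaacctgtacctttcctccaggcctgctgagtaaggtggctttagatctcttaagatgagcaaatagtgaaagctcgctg
Tgfb1 +6.1 kb, epithelium-only, chr7:25692935-25693234: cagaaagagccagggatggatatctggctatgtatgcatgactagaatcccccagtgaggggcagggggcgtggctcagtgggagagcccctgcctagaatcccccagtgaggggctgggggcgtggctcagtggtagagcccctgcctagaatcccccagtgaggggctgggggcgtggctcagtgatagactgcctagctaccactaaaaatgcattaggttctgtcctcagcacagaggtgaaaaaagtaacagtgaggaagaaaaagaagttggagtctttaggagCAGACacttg
Tgfbr2 -84.4 kb, epithelium-only, chr9:116259594-116259893: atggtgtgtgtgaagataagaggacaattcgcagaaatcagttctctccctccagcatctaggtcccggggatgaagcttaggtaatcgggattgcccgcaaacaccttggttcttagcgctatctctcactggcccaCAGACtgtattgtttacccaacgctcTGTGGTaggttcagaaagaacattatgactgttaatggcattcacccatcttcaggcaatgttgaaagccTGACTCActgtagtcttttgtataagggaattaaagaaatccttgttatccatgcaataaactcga
Tgfbr2 -48.3 kb, epithelium-only, chr9:116223499-116223798: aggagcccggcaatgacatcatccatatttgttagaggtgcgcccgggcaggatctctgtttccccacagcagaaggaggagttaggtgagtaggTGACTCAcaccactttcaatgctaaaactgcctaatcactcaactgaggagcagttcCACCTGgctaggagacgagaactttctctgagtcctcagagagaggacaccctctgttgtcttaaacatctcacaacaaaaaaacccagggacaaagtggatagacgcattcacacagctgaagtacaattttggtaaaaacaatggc
Tgfbr3 +81.4 kb, epithelium-only, chr5:107208056-107208355: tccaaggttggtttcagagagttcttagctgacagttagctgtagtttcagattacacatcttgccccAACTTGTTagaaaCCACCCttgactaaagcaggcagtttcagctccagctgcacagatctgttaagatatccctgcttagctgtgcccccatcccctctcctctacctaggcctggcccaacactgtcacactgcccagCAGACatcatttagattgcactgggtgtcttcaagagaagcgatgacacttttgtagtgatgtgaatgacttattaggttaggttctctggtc
Tgfbr3 +136.4 kb, epithelium-only, chr5:107153069-107153368: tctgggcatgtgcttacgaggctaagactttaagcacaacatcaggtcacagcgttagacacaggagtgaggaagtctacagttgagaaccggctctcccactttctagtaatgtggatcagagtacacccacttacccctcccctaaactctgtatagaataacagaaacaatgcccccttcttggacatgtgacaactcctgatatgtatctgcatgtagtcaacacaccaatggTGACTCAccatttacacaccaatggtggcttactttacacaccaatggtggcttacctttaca
Smad3 +7.2 kb, epithelium-only, chr9:63750622-63750921: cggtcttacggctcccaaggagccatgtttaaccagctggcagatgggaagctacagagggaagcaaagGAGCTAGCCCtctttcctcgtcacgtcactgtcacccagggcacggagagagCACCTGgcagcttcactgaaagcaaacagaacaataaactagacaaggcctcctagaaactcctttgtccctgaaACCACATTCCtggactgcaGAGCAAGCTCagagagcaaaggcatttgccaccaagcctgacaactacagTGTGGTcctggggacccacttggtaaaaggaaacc
Smad3 +24.9 kb, epithelium-only, chr9:63732988-63733287: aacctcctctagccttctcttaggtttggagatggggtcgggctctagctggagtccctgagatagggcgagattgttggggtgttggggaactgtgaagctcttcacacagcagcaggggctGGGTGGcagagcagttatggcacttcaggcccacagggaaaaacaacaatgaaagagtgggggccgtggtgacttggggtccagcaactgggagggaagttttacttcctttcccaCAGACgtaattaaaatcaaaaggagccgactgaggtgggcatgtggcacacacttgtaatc
Tgfbr1 -10.3 kb, mesenchyme-only, chr4:47342746-47343045: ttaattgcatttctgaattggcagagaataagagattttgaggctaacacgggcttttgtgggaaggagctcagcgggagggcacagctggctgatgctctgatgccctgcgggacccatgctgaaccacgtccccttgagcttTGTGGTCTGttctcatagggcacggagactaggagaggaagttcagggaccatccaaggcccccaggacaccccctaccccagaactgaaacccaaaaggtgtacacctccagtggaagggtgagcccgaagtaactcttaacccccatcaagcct

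The SMAD letters were present in 6 of the 9 sequences, against 57.6% of all kept regions in a window of the same length, a share that is high because the motif is short. AP-1 letters occurred in 3 sequences, both of Tgfbr2 and the Tgfbr3 +136.4 kb sequence, against 8.96% of all kept regions, 16.9% of all epithelium-only and 10.7% of all mesenchyme-only regions. RUNX letters occurred in 3 sequences, the mesenchyme-only sequence of Tgfbr1 among them, against 22.8% of all kept regions, 22.6% of those open only in epithelium and 32.6% of those open only in mesenchyme. GRHL letters occurred in 1 sequence (Tgfbr3 +81.4 kb), against 3.77% of all kept and 8.95% of all epithelium-only regions. TEAD letters occurred in 1 (Smad3 +7.2 kb), against 16.8% and 27.1%. The p53-family decamer occurred in 1 (Smad3 +7.2 kb, at 2 positions), against 10.7% and 15.0%. E-box letters were in 2 sequences, against 27.7% of all kept and 29.9% of all epithelium-only regions. KLF letters were in 2, against 30.8% and 22.5%, and TFAP2 letters in none, against 11.3% and 7.49%. The RUNX and SMAD matches of the Tgfbr1 -10.3 kb sequence overlap, as do a RUNX and the TEAD match of the Smad3 +7.2 kb sequence. A match is a run of letters and does not show that a factor is bound. Of the Tgfb1 sequence 60.0% lies in repeats that the genome file masks, and of each other sequence at most 14%.

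**Figure D1:**
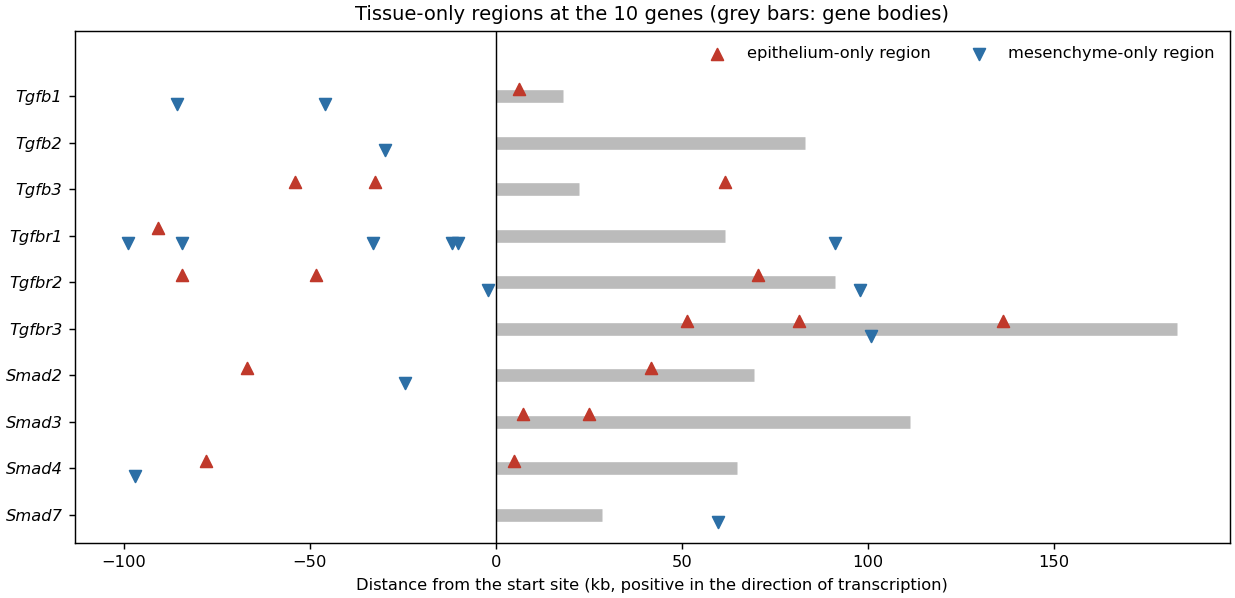
Tissue-only regions at the 10 genes, by the distance of their midpoints from the start site in kb (grey bars are gene bodies, red triangles epithelium-only and blue triangles mesenchyme-only regions). Of the 17 epithelium-only regions 9 lay inside a gene body, against 1 of the 15 mesenchyme-only regions, and the 3 regions found for Tgfb3 were all epithelium-only.

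More of the epithelium-only than of the mesenchyme-only regions lay inside gene bodies. Inside the bodies of the 10 genes, 9 of 212 kept regions were epithelium-only (4.25%) and 1 was mesenchyme-only (0.472%), against 2.63% and 2.21% of the 179516 kept regions inside the bodies of all protein-coding genes. In the flanks, 8 of 453 kept regions were epithelium-only and 14 mesenchyme-only. The 9 epithelium-only regions inside the bodies all lay in introns and were spread over 6 genes (Tgfb1, Tgfbr2, Tgfbr3, Smad2, Smad3 and Smad4), and the mesenchyme-only region lay in an intron of Tgfbr3. The epithelium-only regions were wider, with a median of 741 bp against 494 bp for the mesenchyme-only regions, while regions present in all 6 libraries had a median of 1528 bp. Over all kept regions the order was the same, with medians of 597 bp for epithelium-only and 542 bp for mesenchyme-only regions. No test was made of these counts, and neighbouring regions of a gene are not independent. With the looser rule of a peak in at least 2 of 3 libraries of a tissue and none of the other, the bodies held 19 epithelium-only and 11 mesenchyme-only regions. With any 1 library left out, which asks for fewer peaks, they held 10 to 16 epithelium-only regions, most without epithelium 3 (16), and 1 to 7 mesenchyme-only regions, most without mesenchyme 1 (7).

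Regions present in all 6 libraries made up 150 of the 665 (22.6%), against 19.1% of all kept regions. Their share differed between the genes, with 37 of 94 regions (39.4%) at Smad7, 30 of 85 (35.3%) at Tgfb1 and 28 of 105 (26.7%) at Smad3, against 6 of 59 (10.2%) at Tgfbr1 and 4 of 43 (9.3%) at Smad4. Per 100 kb of window, scaled peaks at Smad7 averaged 48.5 ± 1.7 over the epithelium libraries and 54.0 ± 3.0 over the mesenchyme libraries (SD, n = 3 for each tissue), 48.3 ± 3.9 in epithelium and 51.6 ± 4.4 in mesenchyme at Smad3, and 45.0 ± 5.6 in epithelium and 44.4 ± 3.3 in mesenchyme at Tgfb1. These 3 genes had the densest windows, and in epithelium their ranges over libraries overlapped. Tgfb3 followed with 32.0 ± 1.8 in epithelium and 30.8 ± 2.6 in mesenchyme, and no library of it overlapped the genes above or below it in epithelium. Tgfbr2 (23.5 ± 4.9), Tgfbr3 (21.4 ± 3.1), Tgfbr1 (20.8 ± 1.7) and Smad2 (19.1 ± 1.2) overlapped one another in epithelium, Smad4 (16.6 ± 2.5) overlapped Smad2, and Tgfb2 had the sparsest window in epithelium (11.5 ± 0.7). In mesenchyme Smad4 (13.5 ± 2.3) and Tgfb2 (14.7 ± 0.8) were the sparsest, and they overlapped.

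**Figure D2:**
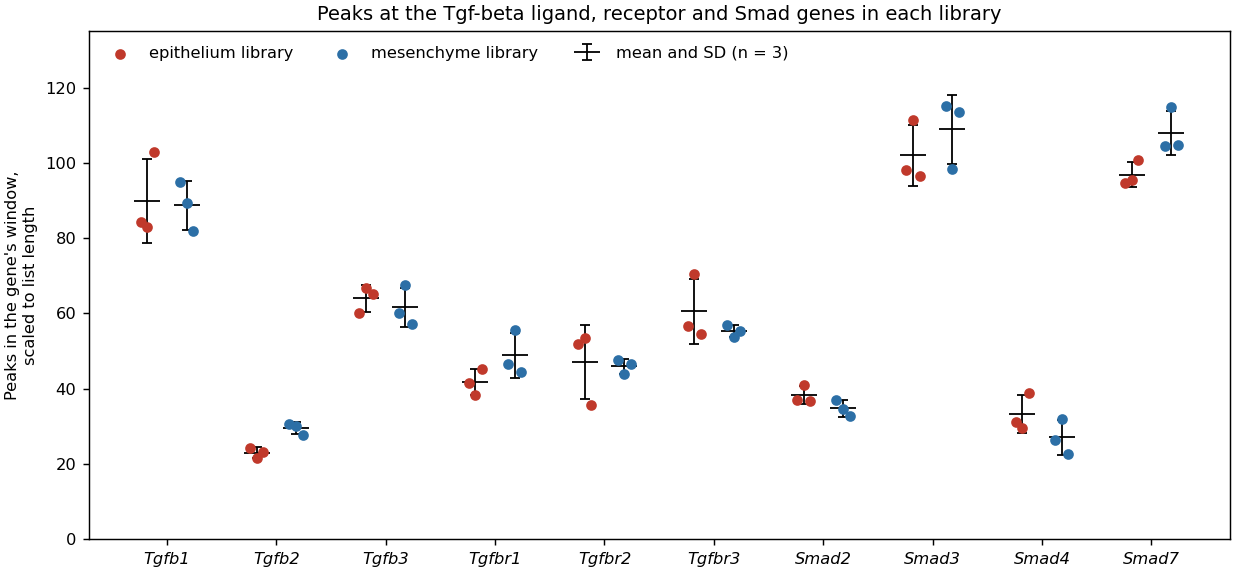
Scaled peaks in the window of each gene (vertical axis, peaks after scaling to list length) in the 3 epithelium libraries (red, left of each pair) and the 3 mesenchyme libraries (blue, right), with black bars for the mean and SD. The tissues do not overlap at Tgfb2 and Smad7, where the mesenchyme libraries all lie higher, and they overlap at the other 8 genes.

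None of the 10 genes differed between the tissues in its number of peaks at an adjusted p under 0.05 (limma over 21737 genes with Benjamini-Hochberg adjustment), and none had an unadjusted p under 0.05. Over all tested genes, 1.55% were called higher and 1.74% lower in epithelium, and 17.9% had an unadjusted p under 0.05. At 2 of the 10 genes, Tgfb2 and Smad7, all mesenchyme libraries lay above all epithelium libraries, and at none did epithelium lie wholly above, against 12.9% and 9% of all tested genes. The median log2 difference of the 10 genes was 0.01, beside -0.02 over all tested genes. Exact permutation tests over the 3 and 3 libraries cannot give a two-sided p under 0.1, and Tgfb2 and Smad7 reached that value.

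Tgfb3, on chromosome 12 (chr12:86056745-86079041, minus strand, mm10), encodes the ligand of the fusing epithelium. Its window held 52, 75 and 62 peaks in the epithelium libraries, against 57, 74 and 58 in the mesenchyme libraries. Scaled to list length, these were 60.0, 66.9 and 65.1 in epithelium against 60.1, 67.4 and 57.3 in mesenchyme. The groups overlapped, and the log2 difference was 0.06 (SE 0.13, limma adjusted p = 0.869). In a window of 10 kb it was 0.32 (adjusted p = 0.638), and with 1 library left out it lay between 0.0049 and 0.12. Peaks covered 24091, 34760 and 25975 bp of the window in epithelium against 26448, 33605 and 25904 bp in mesenchyme, with a scaled log2 difference of 0.08 (SE 0.12, limma adjusted p = 0.689).

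The start site of Tgfb3 lay in a single region of 4970 bp that had a peak in every library. The widest peaks of this region were 2669, 2472 and 2551 bp in epithelium against 2426, 3110 and 4215 bp in mesenchyme. Within 1 kb on each side of the start site, 1804, 1781 and 1804 bp were covered in epithelium against 1745, 1693 and 1806 bp in mesenchyme. The Tgfb3 gene body of 22.3 kb held 8 kept regions, of which 2 were present in all 6 libraries (the start site and an intronic region at +16.8 kb) and none was tissue-only.

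The tissue-only regions of Tgfb3 were thus all outside the gene, and all 3 were epithelium-only. The region at +61.7 kb (743 bp, in an intron of Ttll5 and with Tgfb3 as its nearest coding start site) had peaks of 321, 724 and 618 bp in the epithelium libraries and none in mesenchyme. The region at -32.5 kb (751 bp) had peaks of 457, 430 and 324 bp, and the region at -54.0 kb (359 bp) peaks of 234, 232 and 201 bp, in epithelium and none in mesenchyme. The regions at -32.5 and -54.0 kb lie in introns of Ift43, whose own start site is nearer to them than that of Tgfb3. With the looser rule of 2 of 3 libraries against none, the Tgfb3 window held 6 epithelium-only and 6 mesenchyme-only regions, so the one-sided count rests on the rule that asks for all 3 libraries. With peaks of at least 300 bp alone it held 4 epithelium-only and 0 mesenchyme-only regions. With 1 library left out, the Tgfb3 window held 3 to 5 epithelium-only and 0 to 4 mesenchyme-only regions, with 4 and 4 without mesenchyme 1. Among all genes, 28.6% had more epithelium-only than mesenchyme-only regions in their windows, and 8.9% had at least 2 epithelium-only and no mesenchyme-only regions.

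**Figure D3:**
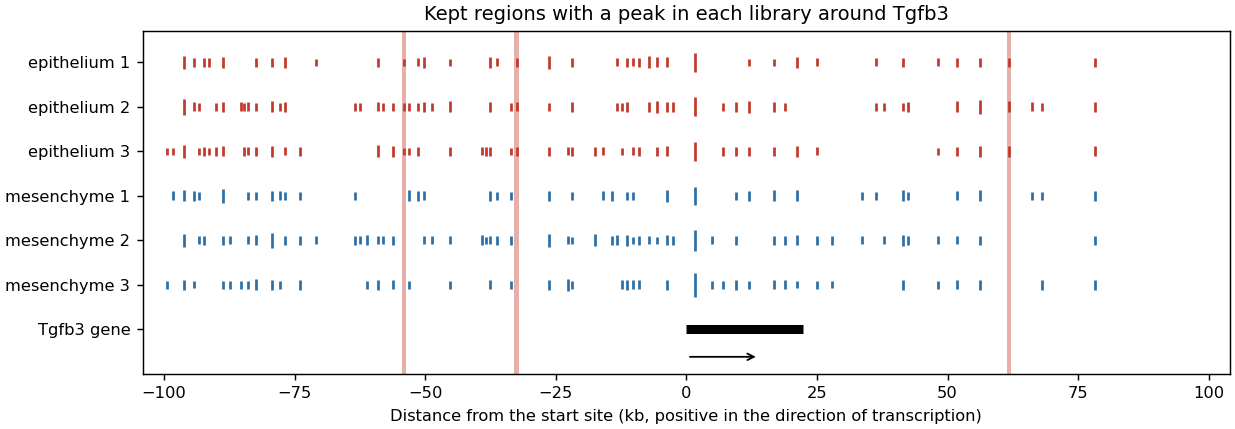
Kept regions with a peak in each library around Tgfb3, by distance of the region's midpoint from the start site in kb. Each tick is a region with a peak in that library (taller ticks for wider peaks, red for epithelium, blue for mesenchyme), shaded bands mark the 3 epithelium-only regions at -54.0, -32.5 and +61.7 kb, and the black bar is the gene body.

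Tgfb3 was set against the other ligands within each library, which removes the length of the list from the comparison. The log2 difference of Tgfb3 minus Tgfb2 in scaled peaks was 1.27, 1.60 and 1.46 in epithelium against 0.95, 1.14 and 1.02 in mesenchyme. All epithelium values lay above all mesenchyme values, and the means differed by 0.40 (exact permutation test over 20 splits, two-sided p = 0.1, the smallest this design can give, adjusted p = 0.2 over 2 tests). The log2 difference of Tgfb3 minus Tgfb1 was -0.48, -0.31 and -0.65 in epithelium against -0.65, -0.40 and -0.51 in mesenchyme, and these overlapped (difference of means 0.04, exact permutation p = 0.8, adjusted p = 0.8). The change in the first comparison came with the Tgfb2 counts, which were lower in epithelium, beside the overlapping Tgfb3 counts. Set against the other 7 genes with no test, the difference of means was 0.28 for Tgfbr1, 0.21 for Smad7, 0.15 for Smad3, 0.04 for Tgfbr2, -0.06 for Tgfbr3, -0.08 for Smad2 and -0.23 for Smad4. Genes on other chromosomes, 19928 in all, were ranked by Pearson's r of scaled log2 peaks with Tgfb3 over the 6 libraries. The nearest were Ascc3 (r = 0.994), Gm8369 (0.985), Nup107 (0.984), Prune2 (0.983) and Rbbp6 (0.978). With 6 values per gene, the highest of so many r values can be high by chance. The ranking is a description and was not tested.

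Tgfb2 (chr1:186622792-186705989, minus strand) encodes the ligand that depends most on the co-receptor Tgfbr3 for binding. It had 21, 24 and 22 peaks in epithelium against 29, 33 and 28 in mesenchyme, the fewest of the 10 genes in each epithelium library. The tissues did not overlap, with mesenchyme higher, and the log2 difference was -0.35 (SE 0.19, limma adjusted p = 0.32). With peaks of at least 300 bp (-0.22) and in a window of 10 kb (-0.17) the tissues overlapped. The covered bases overlapped between the tissues, with 8214, 12252 and 9027 bp in epithelium against 9280, 13466 and 11351 bp in mesenchyme.

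At the Tgfb2 start site the order was the other way round. Within 1 kb on each side, 1345, 1599 and 1633 bp were covered in epithelium against 868, 1312 and 1481 bp in mesenchyme. As covered these values overlap, and after scaling to the covered total of each library they do not, with a log2 difference of 0.45 (SE 0.17, limma unadjusted p = 0.0209, adjusted p = 0.509). Without mesenchyme 1 the difference was 0.28 (unadjusted p = 0.107). An intronic Tgfb2 region at +29.7 kb, present in all 6 libraries, had peaks of 543, 462 and 575 bp in epithelium against 199, 275 and 350 bp in mesenchyme. It was 1 of the 5 regions of this window present in all libraries. These widths were not scaled and the difference was not tested. How many such regions separate the tissues by width was not counted. The only tissue-only region of the window was mesenchyme-only, at -29.7 kb in an intron of the neighbour Rrp15, with peaks of 292, 199 and 229 bp.

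Tgfb1 (chr7:25687002-25705077, plus strand), which encodes a ligand with broad roles in immune and vascular tissue, lies among closely packed genes, with 9 other coding start sites in its window. It had 73, 93 and 98 peaks in epithelium against 90, 98 and 83 in mesenchyme. The groups overlapped, with a log2 difference of 0.02 (SE 0.11, limma adjusted p = 0.96). The epithelium-only region at +6.1 kb lies in a Tgfb1 intron and had peaks of 361, 324 and 432 bp. The mesenchyme-only regions at -46.0 and -85.7 kb lie nearer to B3gnt8 and Erich4, with peaks of 345, 329 and 229 bp and of 270, 306 and 435 bp.

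Tgfbr1 (chr4:47353222-47414931, plus strand), the type I receptor kinase, had more mesenchyme-only regions than any other of the 10 genes. Of 59 kept regions in its window 6 were mesenchyme-only (10.2%) and 1 epithelium-only. Among the mesenchyme-only regions, a pair lay close together upstream with Tgfbr1 as the nearest start site, at -11.8 kb with peaks of 273, 255 and 204 bp, and at -10.3 kb with peaks of 365, 208 and 257 bp. Of the 15 mesenchyme-only regions at the 10 genes only that of Smad7 had all 3 peaks at 300 bp or more, whereas 11 of the 17 epithelium-only regions did, against 31% of all mesenchyme-only and 52.7% of all epithelium-only regions of the genome. Others were at -99.0 and -84.4 kb, in introns of Col15a1 (a collagen gene), and at +91.2 kb, nearest to Alg2. The epithelium-only region at -90.9 kb is centred in an exon of Col15a1 and had peaks of 244, 360 and 401 bp. With 2 of 3 libraries against none, the Tgfbr1 window held 5 epithelium-only and 10 mesenchyme-only regions, and with peaks of at least 300 bp alone it held 1 and 1.

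The number of peaks at Tgfbr1 was 36, 43 and 43 in epithelium against 44, 61 and 45 in mesenchyme. After scaling, epithelium had 41.5, 38.3 and 45.1 against 46.4, 55.6 and 44.4 in mesenchyme, so the groups overlapped by 1 library (log2 difference -0.22, SE 0.15, limma adjusted p = 0.453). Counted by midpoint, the Tgfbr1 body of 61.7 kb held 2 kept regions, neither present in all 6 libraries. The region across the start site had a peak in all 6 libraries, but its midpoint lay just upstream and it was counted in the flank. In the region that holds the Tgfbr1 start site, the widest peaks were 2712, 2665 and 1874 bp in epithelium against 1773, 1645 and 1776 bp in mesenchyme. Every epithelium width lay above every mesenchyme width, but the widths were not scaled and this order was not tested. How many start sites show such an order was not counted. The bases covered within 1 kb of the start overlapped (1839, 1903 and 1727 bp in epithelium against 1773, 1645 and 1776 bp in mesenchyme). Their scaled log2 difference was 0.18 (limma adjusted p = 0.828).

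Tgfbr2 (chr9:116084293-116175360, minus strand), the ligand-binding kinase, held the widest epithelium-only region of the set. This region, at -84.4 kb (chr9:116259093-116260393, 1301 bp, between genes), had peaks of 797, 1227 and 1226 bp in epithelium and none in mesenchyme. A second upstream region at -48.3 kb had peaks of 551, 788 and 523 bp in epithelium, and another, in a Tgfbr2 intron at +70.4 kb, had narrower peaks of 247, 244 and 224 bp. The mesenchyme-only regions lay at -2.2 kb, with peaks of 241, 420 and 370 bp, and at +98.0 kb, with peaks of 271, 331 and 283 bp. The region at -2.2 kb was the tissue-only region closest to a start site among the 10 genes. All 61 kept regions of the window had Tgfbr2 as the nearest coding start site.

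Tgfbr2 peak counts were 45, 60 and 34 in epithelium against 45, 48 and 47 in mesenchyme. The epithelium libraries spread on both sides of the mesenchyme libraries, with epithelium 3 the lowest of the 6 after scaling (35.7) and epithelium 2 the highest (53.5). The log2 difference was 0.01 (SE 0.15, limma adjusted p = 0.974). At the start site, 1406, 1700 and 1659 bp were covered in epithelium against 1619, 1694 and 1263 bp in mesenchyme, which overlap.

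Tgfbr3 (chr5:107106570-107289629, minus strand), the betaglycan gene and the longest of the 10, had its tissue-only regions inside the gene. The 3 epithelium-only intronic regions were at +51.4 kb with peaks of 206, 490 and 307 bp, at +81.4 kb with peaks of 657, 780 and 520 bp, and at +136.4 kb with peaks of 566, 602 and 389 bp. The mesenchyme-only region, at +100.9 kb, was the narrowest tissue-only region of the 10 genes (259 bp, peaks of 235, 249 and 257 bp). Tgfbr3 had 49, 79 and 52 peaks in epithelium against 54, 59 and 56 in mesenchyme, which overlap (log2 difference 0.12, SE 0.13, limma adjusted p = 0.698).

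**Figure D4:**
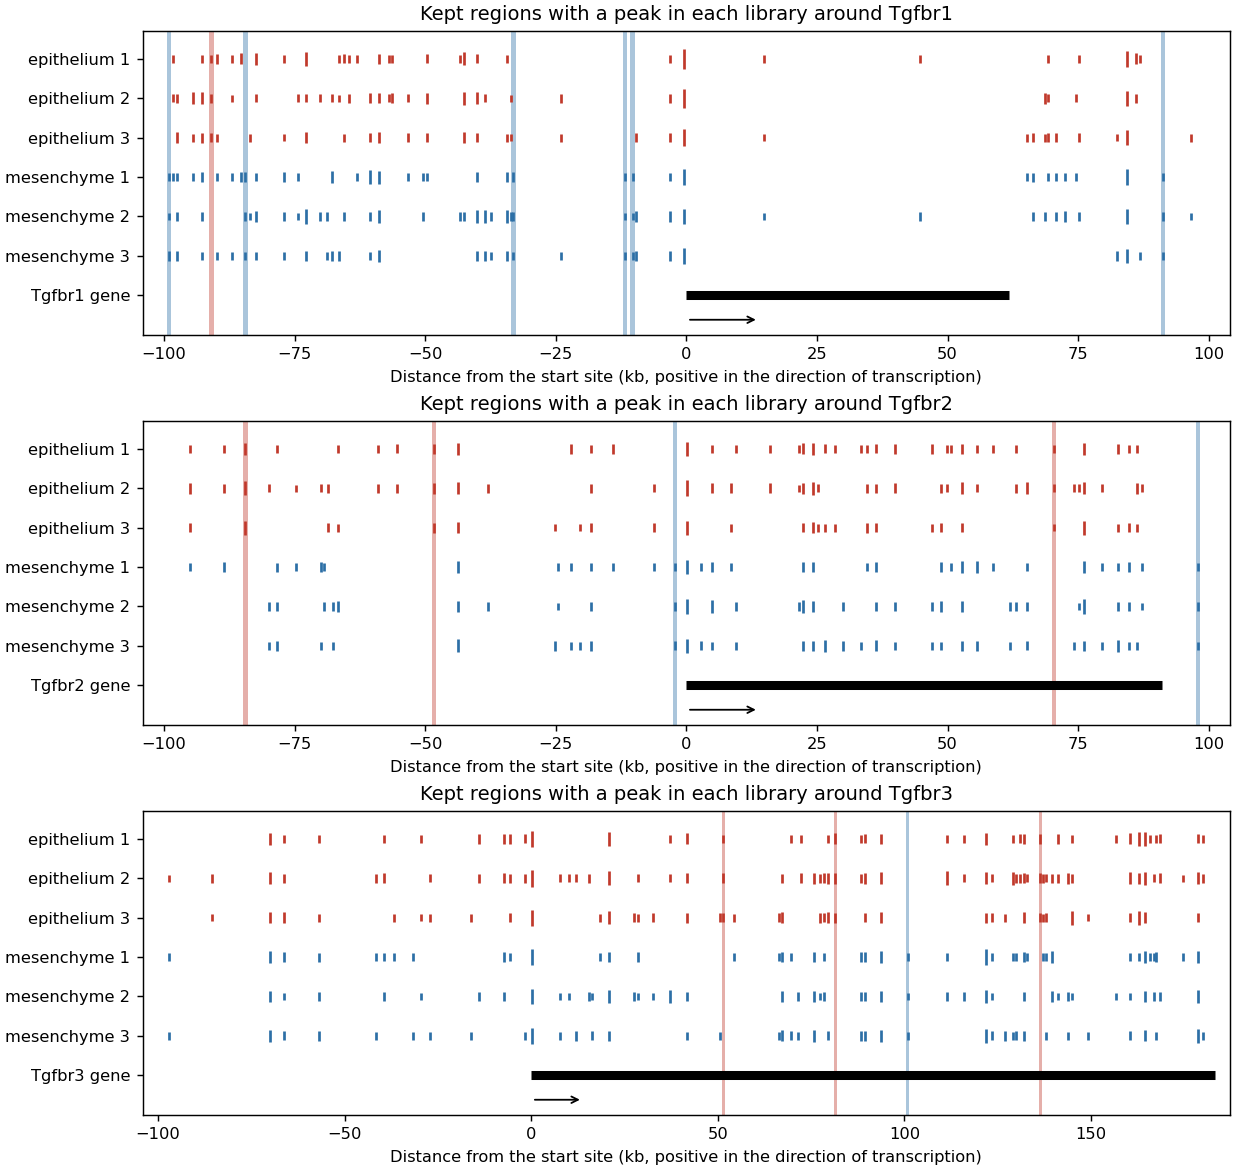
Kept regions with a peak in each library around Tgfbr1, Tgfbr2 and Tgfbr3, by distance of the region's midpoint from the start site in kb (taller ticks for wider peaks, red for epithelium, blue for mesenchyme). Shaded bands mark epithelium-only regions in red and mesenchyme-only regions in blue, 1 and 6 at Tgfbr1, 3 and 2 at Tgfbr2, and 3 and 1 at Tgfbr3, and the black bars are gene bodies.

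Among covered bases, Tgfbr3 was the only gene of the 10 whose tissues did not overlap after scaling. Its peaks covered 22055, 36899 and 23765 bp in epithelium against 23473, 24179 and 24325 bp in mesenchyme. Scaled to the covered total of each library, every epithelium value lay above every mesenchyme value, with a log2 difference of 0.27 (SE 0.13, limma unadjusted p = 0.0446, adjusted p = 0.159). Without epithelium 2 it was 0.16 (unadjusted p = 0.295), and without scaling it was 0.16 and the tissues overlapped. For covered bases none of the 10 genes was called by limma and 1 had an unadjusted p under 0.05, against 6.07% of 21763 tested genes called higher, 7.51% called lower and 29.2% with an unadjusted p under 0.05. All epithelium libraries lay above all mesenchyme libraries at 14.9% of tested genes.

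All 10 start sites lay in a region with a peak in all 6 libraries. The widest peak of each library in these regions was between 793 and 4836 bp wide. Within 1 kb on each side of the start site none of the 10 genes, and 0% of 17874 tested genes, was called higher or lower by limma, and 1 of the 10 (Tgfb2) had an unadjusted p under 0.05, against 7.97% of tested genes. Epithelium lay wholly above mesenchyme after scaling at Tgfb2 and Tgfbr3, against 8.61% of tested genes, and mesenchyme lay wholly above at none, against 2.89%. At Tgfbr3, 1440, 1748 and 1408 bp were covered in epithelium against 1411, 1313 and 1384 bp in mesenchyme (scaled log2 difference 0.26, SE 0.14, limma adjusted p = 0.709). All 10 scaled differences were above 0, as were those of 68.4% of tested genes, with a median of 0.15, beside a median of 0.10 over all tested genes that becomes -0.01 without scaling. A window of 2001 bp cannot be covered more than wholly, and scaling therefore moves wholly covered start sites by the covered total of the library alone.

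**Figure D5:**
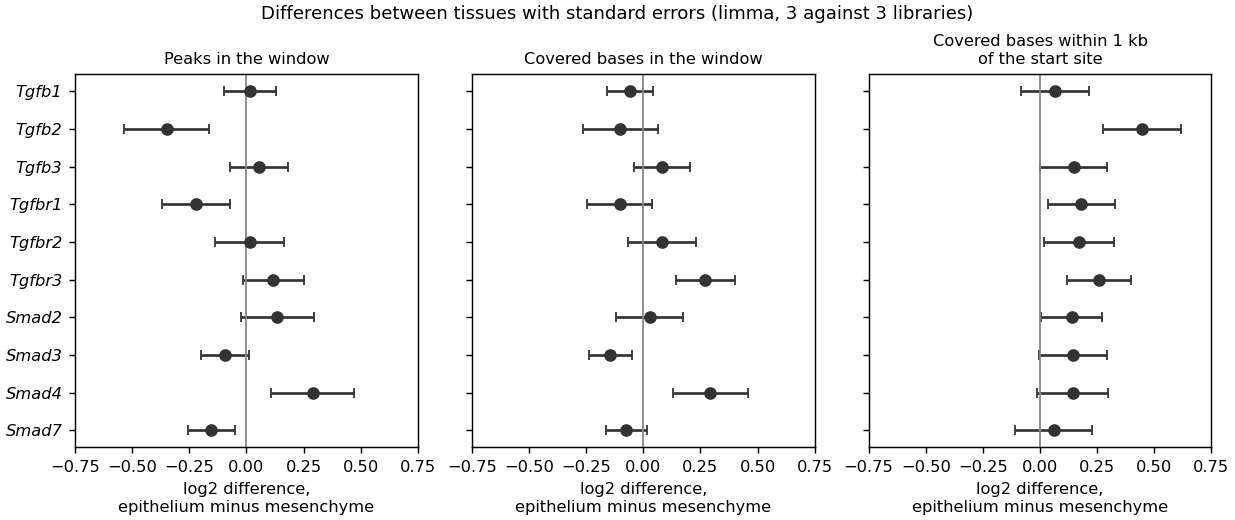
Log2 differences, epithelium minus mesenchyme, with standard errors, in peaks in the window, covered bases in the window and covered bases within 1 kb of the start site (limma, 3 epithelium and 3 mesenchyme libraries, 10 genes from top to bottom). No difference passed an adjusted p of 0.05, with the smallest adjusted p at 0.32 for peaks (Tgfb2), 0.159 for covered bases (Tgfbr3) and 0.509 for the start site (Tgfb2).

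Smad3 (chr9:63646767-63757994, minus strand), a receptor-activated Smad that binds DNA itself, had tissue-only regions in epithelium only. The intronic region at +7.2 kb (chr9:63750154-63751388, 1235 bp) had peaks of 453, 1235 and 635 bp in epithelium, and the intronic region at +24.9 kb peaks of 522, 199 and 286 bp. The window held 85, 125 and 92 peaks in epithelium against 109, 108 and 115 in mesenchyme, which overlap (log2 difference -0.09, SE 0.10, limma adjusted p = 0.692). The looser rule of 2 of 3 libraries against none gave 4 epithelium-only and 8 mesenchyme-only regions at Smad3, the reverse order. Its start site lay in a region of 5857 bp, and the whole 2001 bp around it was covered in 3 of 3 epithelium and 2 of 3 mesenchyme libraries.

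Smad2, Smad4 and Smad7 all lie on chromosome 18. Smad2, the other receptor-activated Smad, had 32, 46 and 35 peaks in epithelium against 35, 38 and 33 in mesenchyme (log2 difference 0.14, SE 0.16, limma adjusted p = 0.714). It had an epithelium-only region in its intron at +41.8 kb (peaks of 401, 532 and 312 bp), an epithelium-only region at -66.8 kb (286, 319 and 353 bp) and a mesenchyme-only region at -24.3 kb (333, 288 and 337 bp). Smad2 was the nearest coding start site for all 37 kept regions of its window.

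Smad4, the shared partner, had 27, 33 and 37 peaks in epithelium against 25, 35 and 23 in mesenchyme. The groups overlapped, and the log2 difference of 0.29 (SE 0.18, limma adjusted p = 0.415) was the highest of the 10 genes. In a window of 10 kb it was 0.80 (unadjusted p = 0.0165, adjusted p = 0.291), and it was 0.17 without epithelium 3 and 0.18 without mesenchyme 3. An epithelium-only region at +4.9 kb in a Smad4 intron had peaks of 503, 322 and 421 bp. The epithelium-only region at -77.8 kb (410, 472 and 342 bp) and the mesenchyme-only region at -97.0 kb (243, 341 and 199 bp) both lie in introns of Me2 and are nearer to other start sites.

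Smad7, the inhibitory Smad, had 82, 107 and 96 peaks in epithelium against 99, 126 and 106 in mesenchyme. After scaling, epithelium had 94.6, 95.4 and 100.8 and mesenchyme 104, 115 and 105, which do not overlap (without scaling they do), and the log2 difference was -0.15 (SE 0.10, limma adjusted p = 0.451). Its 37 regions present in all 6 libraries were the most of any of the 10 genes, and Smad7 was the nearest coding start site for all 94 kept regions of its window. The only tissue-only region was mesenchyme-only, with peaks of 454, 530 and 453 bp. It lay at +59.8 kb from the start site, which is beyond the gene's end.

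The other genes of the pathway were read from 5 lists with 90 genes in all. By peaks per gene, limma called 1 of the 90 higher and 2 lower in epithelium, beside the 1.55% and 1.74% of all tested genes. In the non-Smad branch, Map3k7 (TAK1, a kinase that relays the signal to p38 and JNK) had 24, 28 and 24 peaks in epithelium against 14, 16 and 14 in mesenchyme (log2 difference 0.81, SE 0.21, limma adjusted p = 0.0218), and its 5 tissue-only regions were all epithelium-only. The tissues did not overlap. Map2k6, a kinase that activates p38, had 23, 31 and 26 peaks in epithelium against 38, 48 and 41 in mesenchyme (log2 difference -0.59, SE 0.17, limma adjusted p = 0.0325). With peaks of at least 300 bp alone the Map2k6 difference was -0.21 and not called (adjusted p = 0.615).

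Smurf2, a ubiquitin ligase that marks receptors and Smads for removal, had 15, 18 and 15 peaks in epithelium against 31, 36 and 32 in mesenchyme, the widest gap among the pathway genes (log2 difference -0.94, SE 0.20, limma adjusted p = 0.00364). The 4 tissue-only regions of its window were all mesenchyme-only. Smurf2 and Map2k6 both lie on chromosome 11, which took 7.01% to 7.07% of the peaks in epithelium lists and 7.59% to 7.87% in mesenchyme lists. Scaled to the peaks of its own chromosome, Smurf2 kept its call (log2 difference -0.81, limma adjusted p = 0.0164), Map2k6 did not (-0.45, adjusted p = 0.128) and Map3k7, on chromosome 4, did (0.81, adjusted p = 0.0275). With 1 library left out, Smurf2 kept its call in 6 of 6 cases (adjusted p 0.011 to 0.0214), Map3k7 in 1 of 6 (0.0431 to 0.0968) and Map2k6 in none (0.0689 to 0.13).

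By tissue-only regions, 12 of the 90 pathway genes had at least 2 tissue-only regions, all of them epithelium-only (13.3%, against 8.9% of all genes), and 17 had the same with mesenchyme-only (18.9%, against 11.8%). Among the 16 genes of ligand latency and activation none was called by limma. Of these, the integrin genes Itgav (2), Itgb8 (2) and Itgb5 (3), whose products form receptors that can release latent ligand, had epithelium-only regions alone, as did Thbs1 (3) and Plg (4), a latent Tgf-beta activator and the plasmin precursor. The matrix metalloprotease genes Mmp9 (5) and Mmp14 (4) had mesenchyme-only regions alone. Itgb8 had 9, 12 and 12 peaks in epithelium against 6, 10 and 4 in mesenchyme (log2 difference 0.77, SE 0.31, limma adjusted p = 0.17), which after scaling did not overlap.

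Among the 14 co-receptor and extracellular modulator genes none was called by limma. Those with mesenchyme-only regions alone were Eng (2), an endothelial co-receptor, Bambi (2), a decoy receptor, Fbn2 (2), a microfibril protein that holds latent ligand in the matrix, and Tdgf1 (3), a Nodal co-receptor. Cd109 (2), a co-receptor that dampens the signal, had epithelium-only regions alone. Among the 20 Smad partners and regulators, Smad6 (5), the inhibitory Smad of the Bmp branch, Tgif2 (4) and Crebbp (2) had mesenchyme-only regions alone beside Smurf2, and Tgif1 (4), a repressor that binds Smads, had epithelium-only regions alone. Smad6 had 88, 103 and 98 peaks in epithelium against 116, 140 and 121 in mesenchyme (log2 difference -0.32, SE 0.10, limma adjusted p = 0.0651).

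In the non-Smad branch of 11 genes, Tab1 (4) and Map2k3 (2) had mesenchyme-only regions alone and Traf6 (2) epithelium-only regions alone, beside Map3k7. Among the 29 target genes none was called by limma. Epithelium-only regions alone were found at Snai2 (2), Acta2 (3) and Has2 (2), and mesenchyme-only regions alone at Snai1 (5), Fn1 (3) and Id3 (2), among others. Many of these windows hold other genes, and the regions were assigned by distance alone.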

How the data were processed

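ATAC-seq peak lists of 3 epithelium and 3 mesenchyme libraries of E14.5 C57BL/6 palate were used, grouped by their labels. The deposited files hold other values than counts: peak positions only (chromosome, start and end, mm10), with no height, score or read depth, so the depth behind a peak is unknown and no interval for it could be given. The processing notes of the submitters and the methods say that the authors used Trimmomatic 0.38 for trimming, Bowtie2 for alignment and SAMtools to remove duplicates, kept fragments under 100 bp and called peaks library by library in MACS2 2.1.1, with deepTools 2.0 also named. For the threshold of the peak calls, nothing is given in the sources used here.

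Genes were taken from GENCODE M21 (1 entry per protein-coding symbol). Peaks per gene, divided by relative list length, entered limma 3.58.1 (R 4.3.3) as log2(scaled peaks + 1), where the mean reached 1 peak. Covered bases were scaled to the covered total and tested as log2(bp + 200) over genes with at least 200 bp, and at start sites as log2(bp + 50) over genes with at least 50 bp. Fold changes on these scales understate changes at low values. Fits used all 6 libraries with no covariate and an adjusted p threshold of 0.05, and were tested on simulated data. Motif letters and sequences were read with pysam 0.24.0 from RefSeq GRCm38.p6.

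Alternatives were no scaling, own-chromosome scaling, other pseudocounts, no filter, peaks of at least 300 bp, a 10 kb window, the 2 nearest start sites, the gene's 5′ end, a replicate block and each library left out. The genes and lists were chosen with earlier results of these data known. Named genes were the 10 genes, pathway genes that passed limma and those with at least 2 tissue-only regions on 1 side alone, and some results that this rule covers are not reported here.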

Additional observations from a re-analysis of the deposited data

How the results depend on the processing

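None of the 10 genes passed the threshold under any alternative (360 values over the 3 measures), and 26 of these values changed sign. Without scaling, the log2 difference in peaks was -0.045 at Tgfb1, -0.0054 at Tgfb3 and -0.047 at Tgfbr2, and in covered bases -0.027 at Tgfb3. It was -0.043 at Tgfb3 with scaling to its own chromosome, 0.11 at Tgfbr1 in the 10 kb window and -0.12 at Smad2 with peaks of at least 300 bp. With 1 library left out, peaks ranged from -0.083 to 0.071 at Tgfb1 and from -0.089 to 0.20 at Tgfbr2, and covered bases from -0.0016 to 0.16 at Tgfb3. Tgfb3 against Tgfb1, under alternatives chosen after seeing the data, became -0.058 with own-chromosome scaling, -0.13 with the 2 nearest start sites and -0.048 to 0.13 with 1 library left out, while Tgfb3 against Tgfb2 stayed between 0.33 and 0.49.

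Over all genes, limma called 715 by peaks, 48 without scaling (32 higher and 16 lower), 460 with own-chromosome scaling, 1 without a filter, 20 in the 10 kb window (20 higher, 0 lower), 221 with the 2 nearest start sites and 342 to 526 with 1 library left out (fewest without epithelium 1). Covered bases gave 2955 calls, 802 without scaling (where the median difference moved to -0.12, against -0.01), 1163 without a filter and 1699 to 2464 with 1 library left out. Start sites gave 0 calls, 15 within 500 bp and 0 to 3 with 1 library left out. Map2k6, Map3k7 and Smurf2 lost their calls without scaling (adjusted p 0.188, 0.181 and 0.0708), without a filter (0.114, 0.115 and 0.113) and in the 10 kb window (0.176, 0.0876 and 0.237).

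The windows of the 10 genes held 37 epithelium-only and 37 mesenchyme-only regions when 1 peak in the other tissue was allowed, 53 and 64 with 2 of 3 libraries against none, 18 and 8 with peaks of at least 300 bp, 9 and 2 within 10 kb, and 21 to 37 and 19 to 40 with 1 library left out. The gene bodies held 16 and 5, 19 and 11, and 8 and 0 under the first 3 of these rules, and 10 to 16 and 1 to 7 with 1 library left out. A replicate block gave 1021 calls by peaks, 3034 by covered bases and 0 at start sites, with no call among the 10 genes. Deviations of same-numbered libraries correlated at 0.02, 0.05 and -0.01 across genes, and not every library correlated best with its own number. These correlations, over 3 libraries per tissue, cannot decide whether equal numbers mark tissue of the same embryos. The labels do not say so. The lists hold positions only, so a region without a peak may be open below the caller's threshold, and width is the sole measure of strength.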
